A study of Mus musculus with 1505 samples.

Results

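Voltage-gated calcium channels are built around 1 large pore-forming subunit, and the genes described here encode 8 of these subunits: Cacna1a, Cacna1b, Cacna1c, Cacna1d, Cacna1e, Cacna1g, Cacna1h and Cacna1i. The genes were chosen by name, out of 42381 genes in the exonic count table of a Patch-seq study of mouse primary motor cortex, and all 8 were found in the table. In Patch-seq, a neuron in a brain slice is recorded through a patch pipette and its RNA is then aspirated and sequenced, so that each sample is 1 cell. The study used adult mice of both sexes, either wild-type C57Bl/6 or carrying the Ai9 reporter with a Cre driver (Viaat, Sst, Vip, Pvalb, Npy, Vipr2, Slc17a8 or Gnb4) that marks the cells expressing the driver gene. The labels do not say from which line or which animal a cell came. Of 1320 cells recorded at room temperature (25 °C), 1228 carry a transcriptomic type (t-type), 815 of them inhibitory and 413 excitatory. A further 185 cells, of which 177 have a t-type, were recorded at 34 °C with kynurenic acid and picrotoxin in the bath, which block fast synaptic transmission, and these experiments targeted layer 5 Sst and excitatory neurons.

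The pore subunit sets the voltage at which a calcium channel opens and the kind of current it carries. Cacna1a (P/Q-type), Cacna1b (N-type) and Cacna1e (R-type) encode channels that open at strong depolarization, and the first pair is best known for triggering transmitter release at nerve terminals. Cacna1c and Cacna1d encode L-type channels, which sit mainly on cell bodies and dendrites and couple activity to gene expression. Cacna1g, Cacna1h and Cacna1i encode T-type channels, which open close to the resting potential and are known for rebound bursts of action potentials.

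Cells were grouped into 10 families from their t-types. The inhibitory families were Pvalb (286 cells), Sst (272), Vip (152), Lamp5 (92) and Sncg (13), named after genes that mark them. The excitatory families were IT, intratelencephalic neurons (253 cells), ET, extratelencephalic neurons whose t-types are labelled PT (48), CT, corticothalamic neurons (83), L6b, neurons of the deepest cortical layer (24), and NP, near-projecting neurons (5). Of the 78 t-types, 53 hold at least 5 cells. The level of a gene is given as CPM, its exonic reads summed over the cells of a group per 1000000 exonic reads, without the spike-in rows. The typed cells had 2588 to 18172944 exonic reads each, with a median of 1267853, and the 8 genes together took 0.0501% of them. Since no animal is named, each group was treated as 1 sample and no test between groups was run. Recording days that hold both groups of a comparison are counted as a description. A gene is called different where the CPM values, after adding 1, differ at least 2-fold and the higher one reaches 10 CPM. Intervals (95%, exact Poisson for reads or binomial for cells) cover counting error only and leave out differences between animals. The Poisson intervals also leave out differences between cells. The libraries have no molecular identifiers, so these intervals count reads and not molecules. The t-types were assigned by the authors from the same RNA, so levels by family describe the labelled groups and are not independent of the labels.

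The inhibitory and excitatory families were set apart by their class markers. Gad1 (GABA synthesis) was at 1375 to 4377 CPM in the inhibitory families and at 14.6 CPM or less in the excitatory ones. Slc17a7 (vesicular glutamate transport) was at 202 to 855 CPM in the excitatory families and at 13 CPM or less in the inhibitory ones. Of the family markers, the gene Pvalb was at 373 CPM in Pvalb and Sst at 2189 in Sst, both at 16.6 or less elsewhere. Lamp5 was at 967 CPM in Lamp5 but also at 544 in ET and 284 in IT. Vip was at 10042 CPM in Vip and 1997 in Sncg, where the gene Sncg was at 36.6. Fezf2, chosen for ET, was at 321 CPM there and at 97.3 to 125 in CT, L6b and NP. Foxp2, chosen for CT, was at 149 CPM there and at 100 in L6b. Slc30a3 did not set the IT family apart, at 168 CPM against 154 in Sst. Markers of other cell types were read in every family: the sum of 8 microglia markers ranged from 279.5 to 964 CPM, that of 8 astrocyte markers from 341 to 1182, that of 7 oligodendrocyte markers from 219 to 1920 and that of 7 vascular markers from 2.2 to 18.6, with P2ry12, Aqp4, Mog and Cldn5 among those at 0 in NP. The recording dates in the sample titles were split into an earlier period and a later one, which is the last calendar year at 25 °C. The earlier period (491 typed cells) holds only 1 CT, 6 Vip and 8 Lamp5 cells, and the later period (737) only 5 ET cells.

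Cacna1e reached the highest CPM of the 8 genes, in L6b and without scaling for exon length. The gene was nearly missing from Pvalb and most Sncg cells. It lies on chromosome 1 (mm10, bases 154390731 to 154884501, minus strand), and no exon of another gene overlaps its exons. Its level was 2.73 CPM in Pvalb (interval 2.58 to 2.89, counting error only), 111.6 in Vip, 121.6 in Lamp5, 197.6 in Sst, 274.6 in IT, 280.7 in CT and 350.6 in ET. In Pvalb, 39.4% of the reads came from 1 of 286 cells, and the level was 1.66 CPM without it, 0.468 in the earlier recording period and 4.58 in the later one. Among the small families L6b stood at 610.0 CPM. The other small ones rest on single cells: Sncg fell from 32.5 to 0.834 CPM without 1 of its 13 cells, with no read in 9 of them, and NP from 204.5 to 86.3 CPM without 1 of its 5. IT, CT, ET and L6b thus lay above the inhibitory families, while NP and Sst could not be ordered, at 204.5 and 197.6 CPM in sum and medians of 95.6 and 97.1 CPM over cells. Across single cells the spread was wide: in IT cells the level ran from 0 to 2549 CPM with a median of 302, in ET cells from 0 to 1285 with a median of 414, and in Sst cells from 0 to 1778 with a median of 97.1. In Pvalb cells the median and the upper quartile were both 0, and only 4 of 286 cells passed 50 CPM, against 156 of 272 Sst cells and 209 of 253 IT cells.

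**Figure D1:**
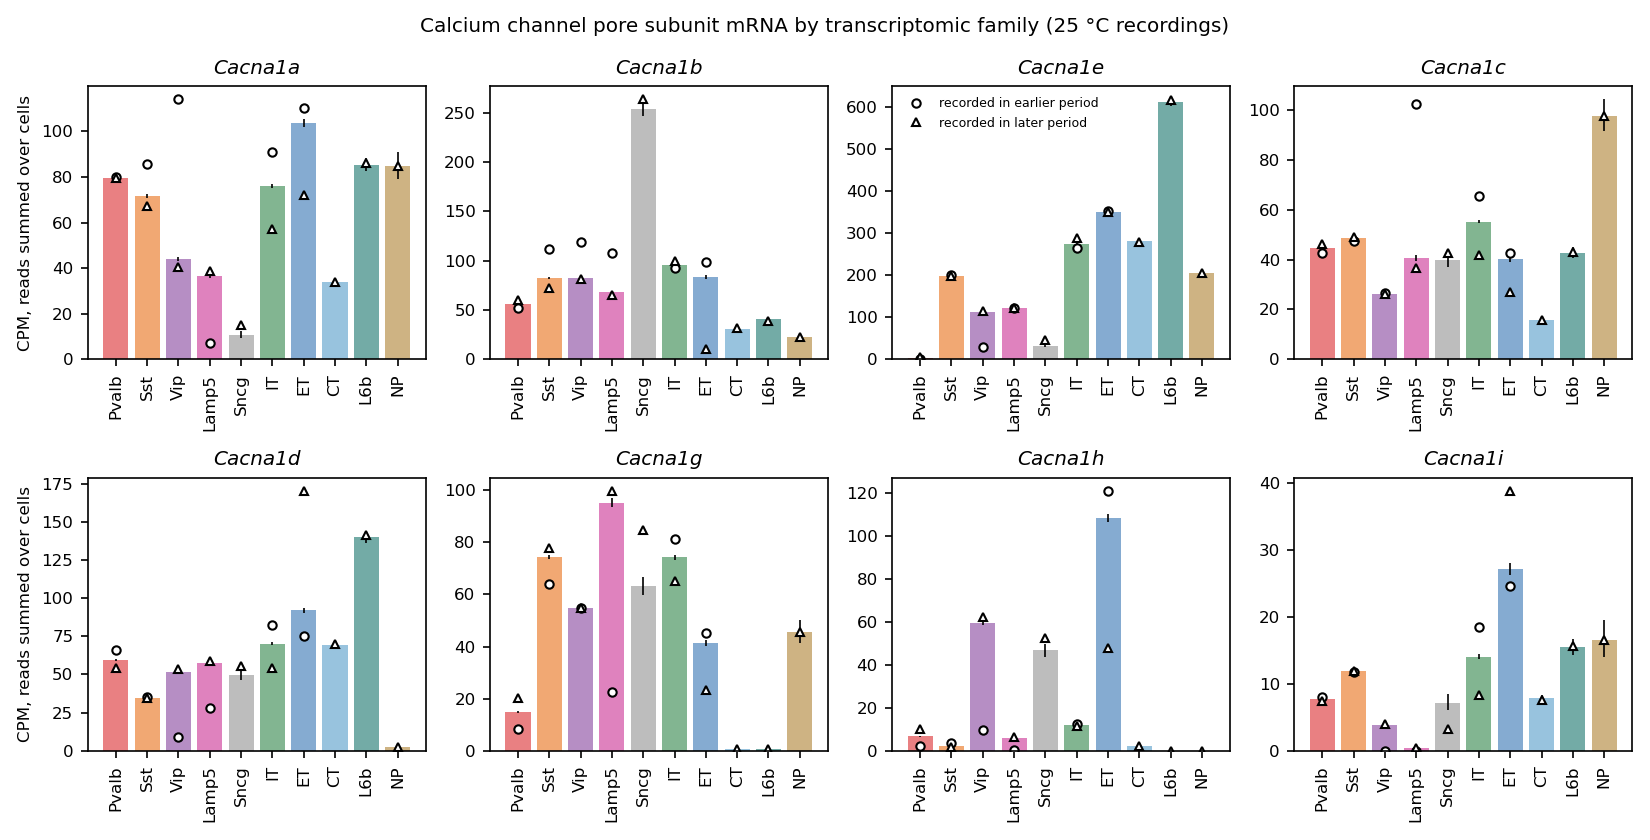
Summed level (CPM, linear axis from 0) of each pore subunit gene in 10 families at 25 °C. Bars stand for all cells of a family, black lines for exact Poisson intervals (95%), and open symbols for the 2 recording periods where a period holds at least 5 cells; Cacna1e is at 2.73 CPM in Pvalb and at 274.6 to 610.0 CPM in IT, CT, ET and L6b, and Cacna1g is under 1 CPM in CT and L6b.

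The comparison of excitatory with inhibitory neurons asked which pore subunits follow the broadest division of cortical neurons. Of the 8 genes, 1 passed the 2-fold mark, against 16.4% of the 11261 genes tested. This gene was Cacna1e, at 306 CPM in excitatory and 101.2 CPM in inhibitory cells, a log2 ratio of 1.59. It was higher in the excitatory cells on 86 of the 105 recording days that held both classes, with a log2 ratio of 2.09 among the earlier cells and of 1.48 among the later ones. The inhibitory value joins Pvalb at 2.73 CPM and Sncg at 32.5 with Vip, Lamp5 and Sst at 111.6, 121.6 and 197.6 CPM. IT and CT were at 274.6 and 280.7 CPM, and the ratio without Pvalb was not computed. The P/Q-, N- and L-type genes Cacna1a, Cacna1b and Cacna1c had log2 ratios between 0.06 and 0.16, the other L-type gene Cacna1d 0.63. For the T-type genes the ratio depended on the period. Cacna1h had a log2 ratio of 3.44 among the earlier cells and -0.92 among the later ones, and Cacna1g 1.30 and -0.86, while the families behind the 2 classes also changed in number between the periods. The part of that change in the ratios was not tested. All 7 oligodendrocyte markers were higher in the excitatory cells (1061 against 617 CPM in sum), as were 5 of 8 astrocyte markers (782 against 399) and 3 of 8 microglia markers (743 against 799), and their part in the Cacna1e ratio was not tested.

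Between Sst and Pvalb neurons, the 2 main classes of interneuron that arise in the medial ganglionic eminence, 2 of 7 tested genes passed 2-fold, against a background of 13.1%. Both were higher in Sst. Cacna1e had a log2 ratio of 5.73 and was higher on 32 of 37 shared days. Cacna1g, the most widely read T-type gene, was at 74.3 CPM in Sst and 15 in Pvalb, a log2 ratio of 2.23, and was higher on 24 of 37 days. Both differences were past 2-fold in each period alone (7.10 and 5.14 for Cacna1e, 2.78 and 1.88 for Cacna1g). Cacna1a was at 71.7 CPM in Sst and 79.7 in Pvalb, and Cacna1c at 48.7 and 44.7. Cacna1b was at 82.3 and 56.2 CPM, with a log2 ratio of 0.27 among the later cells but of 1.10, past 2-fold, among the earlier ones (112 and 51.8 CPM). None of the 8 microglia markers was higher in Sst (675 against 887 CPM in sum). Of the astrocyte markers 4 of 8 were higher in Sst (358 against 408), and of the oligodendrocyte markers 2 of 7 (676 against 696). The part of these markers in the Cacna1e and Cacna1g ratios was not tested.

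The low level of Cacna1e in Pvalb neurons held for each Pvalb t-type. The 9 t-types ran from 0.0668 CPM in Pvalb Calb1_1 to 15.7 in Pvalb Kank4, with a median of 0.685. In Pvalb Kank4, a single cell gave 60.6% of the reads, and the median of its 22 cells was 0. In Sst neurons, 14 of 15 t-types reached 10 CPM. The highest was Sst Chodl, long-range projecting cells rich in nitric oxide synthase, at 884 CPM, with 12 cells from 0 to 1778 CPM around a median of 915. The lowest was Sst Th_3 at 8.28 CPM, where 16 cells ran from 0 to 139 CPM around a median of 0. On the scale of CPM after adding 1 these t-types differed 95.3-fold. Quartiles over cells did not overlap, at 143 to 1195 CPM in Sst Chodl and 0 to 0.226 in Sst Th_3.

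A like split appeared among Vip neurons, where 7 of 9 t-types reached 10 CPM of Cacna1e. Vip Chat_1, which carries the gene for acetylcholine synthesis in its name, was highest at 211 CPM, and Vip Mybpc1_1 was lowest at 1.17 CPM. The cells of Vip Chat_1 ran from 0 to 915 CPM around a median of 49.9. Among IT neurons all 8 t-types were above 150 CPM, from 153 in L5 IT_3 to 619 in L6 IT_1. In ET neurons L5 PT_1 stood at 409 CPM and L5 PT_4 at 83.6, with cell quartiles of 266 to 689 and 0.161 to 134.

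**Figure D2:**
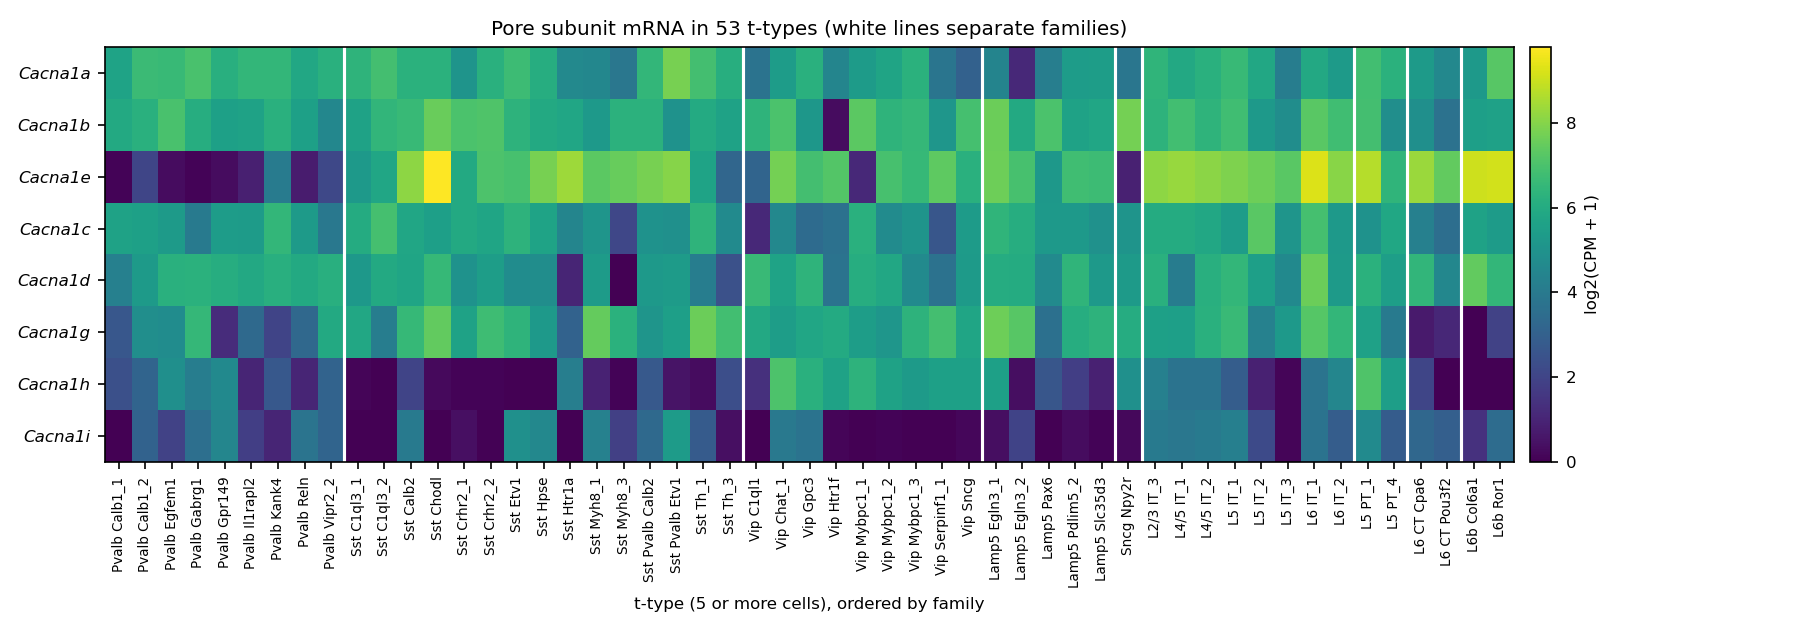
Level of the 8 pore subunit genes, as log2(CPM + 1) in color, in 53 t-types with at least 5 cells; each column is 1 t-type and white lines separate families. Cacna1e is at 15.7 CPM or less in all 9 Pvalb t-types and brightest in Sst Chodl (884 CPM), while Cacna1h is bright in 8 of 9 Vip t-types and in L5 PT_1 (136 CPM).

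Cacna1h lies on chromosome 17 (bases 25374285 to 25433783, minus strand), where exons of Tpsg1 on the other strand overlap it. The kit does not keep the strand, so reads of these genes cannot be told apart there. Its level was 108.1 CPM in ET and 59.6 in Vip, but 12.1 in IT, 6.66 in Pvalb, 6.06 in Lamp5, 2.33 in CT and 2.16 in Sst. Without the cell with the most reads, Lamp5 fell to 3.8 and CT to 1.23 CPM. It was also at 46.7 CPM in Sncg, and it had no read in the 5 NP cells. ET and Vip thus stood apart from the other 5 larger families. In ET cells the level ran from 0 to 426 CPM with a median of 108, in Vip cells from 0 to 642 with a median of 2.0, and in IT cells from 0 to 314 with a median of 0.

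Among excitatory projection neurons, ET neurons send axons out of the telencephalon and IT neurons remain within it. Comparing ET with IT, 1 of 8 genes passed 2-fold, against a background of 20%. This was Cacna1h, with a log2 ratio of 3.06. It was higher in ET on 18 of 22 shared days, and both ET t-types with at least 5 cells (43.9 and 136 CPM) lay above all 8 IT t-types (0.102 to 21.3 CPM). The ratio was 3.18 in the earlier period and 1.94 in the later one, with its 5 ET cells. Oligodendrocyte markers were higher in ET for 7 of 7 genes (1554 against 715 CPM in sum), astrocyte markers for 5 of 8 (895 against 771) and microglia markers for 2 of 8 (760 against 933), and their part in the Cacna1h ratio was not tested. The other T-type genes had log2 ratios of -0.83 (Cacna1g) and 0.91 (Cacna1i).

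Cacna1h was also the gene that differed among interneurons of the caudal ganglionic eminence. In Vip against Lamp5 neurons, 1 of 7 tested genes passed 2-fold, against 19.4% of all tested genes, and this was Cacna1h with a log2 ratio of 3.10. It was higher in Vip on 15 of 17 shared days. Of the 9 Vip t-types, 8 lay between 39.6 and 131 CPM, and Vip C1ql1 was the exception at 1.53 CPM. Of the 5 Lamp5 t-types, 4 were at 5.17 CPM or less, and the exception was Lamp5 Egln3_1 at 46.9 CPM, where 4 of 9 cells had a read and 52.3% of the reads came from 1 of them. All 8 microglia markers were higher in Vip (964 against 741 CPM in sum), as were 5 of 8 astrocyte markers (477 against 402) and 7 of 7 oligodendrocyte markers (530 against 353), and their part was not tested.

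Across all interneurons of the 2 eminences, 1 of 7 tested genes passed 2-fold, against a background of 12.6%. Cacna1h was at 4.48 CPM in the medial and 37.8 CPM in the caudal group, a log2 ratio of -2.83, and was lower in the medial group on 19 of 44 shared days, higher on 10 and equal on 15. Cacna1a had a log2 ratio of 0.93 in the other direction (75.8 against 39.4 CPM) and was higher in the medial group on 31 of 44 days. The Cacna1h difference did not hold for each family. Vip and Sncg were at 59.6 and 46.7 CPM of Cacna1h, but Lamp5 was at 6.06, beside 6.66 in Pvalb and 2.16 in Sst. The medial group was lower in 5 of 8 microglia markers (784 against 840 CPM in sum) and higher in 6 of 7 oligodendrocyte markers (686 against 424) and 4 of 8 astrocyte markers (383 against 441).

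**Figure D3:**
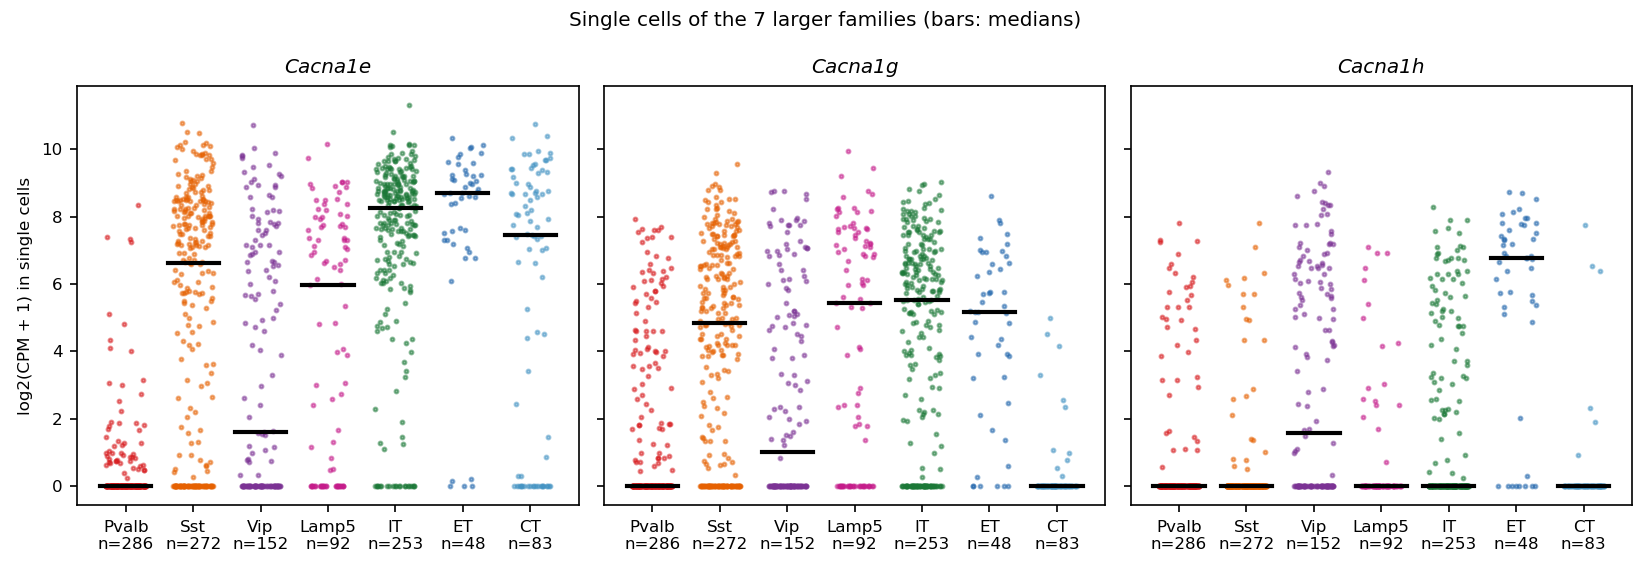
Level of Cacna1e, Cacna1g and Cacna1h in single cells of 7 families, as log2(CPM + 1); each point is 1 cell and black bars are medians. For Cacna1e the Pvalb median is at 0 and the ET median is highest (414 CPM), for Cacna1g 72 of 83 CT cells are at 0, and for Cacna1h the ET median is 108 CPM while 5 of the 7 medians are at 0.

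Cacna1g lies on chromosome 11 (bases 94408391 to 94474198, minus strand). Its level was highest in Lamp5 at 95.2 CPM, followed by Sst and IT with 74.3 and 74.2 CPM, Sncg with 63.3, Vip with 54.7 and ET with 41.3. The 5 NP cells gave 45.5 CPM, of which 88.6% came from 1 cell, and 7.87 CPM without it. It fell to 15 CPM in Pvalb and to 0.838 and 0.727 CPM in L6b and CT, with 0.431 in L6b without the cell that gave 51.5% of its reads. The single-cell maximum in CT was 30.9 CPM, and 72 of 83 CT cells had no read, while IT cells ran from 0 to 524 CPM with a median of 44.7. Both CT t-types were near 1 CPM (0.644 and 1.12), and none of the 8 IT t-types was below 18.7 CPM.

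The comparison of CT with IT neurons gave the most differences of the 6 that were made. Of 8 genes, 5 passed 2-fold, all lower in CT, against a background of 20.8% in either direction. Most of that background was lower in CT too, since only 25.5% of the 2289 genes past 2-fold were higher there. Cacna1g had a log2 ratio of -5.45 and was lower on 21 of 28 shared days, with no day in the other direction. Cacna1h (-1.98), Cacna1c (-1.75), Cacna1b (-1.59) and Cacna1a (-1.14) followed. Cacna1e and Cacna1d, with log2 ratios of 0.03 and -0.01, were at like summed levels in both families. Their medians over cells were lower in CT, at 175 against 302 CPM for Cacna1e and 2.01 against 27.95 for Cacna1d. In CT, 1 of 83 cells gave 20.6% of the Cacna1e reads, and 1 gave 24.1% of the Cacna1d reads. The median log2 ratio was -1.36 over the 8 genes and -0.10 over all genes tested.

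These differences were not equally firm. Of the 83 CT cells, 82 were recorded in the later period, and against the IT cells of that period the log2 ratio of Cacna1a was only -0.74, below the 2-fold mark, while those of Cacna1b (-1.64), Cacna1c (-1.36), Cacna1g (-5.26) and Cacna1h (-1.93) stayed past it. Cacna1c was lower in CT on 10 and higher on 13 of 28 shared days, against its summed ratio. CT cells also had fewer genes with a read than IT cells (medians 6394 and 7721). All 8 microglia markers were lower in CT (308 against 933 CPM in sum), 3 of 8 astrocyte markers were higher (628 against 771) and 6 of 7 oligodendrocyte markers were higher (1421 against 715), and their part in these ratios was not tested.

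**Figure D4:**
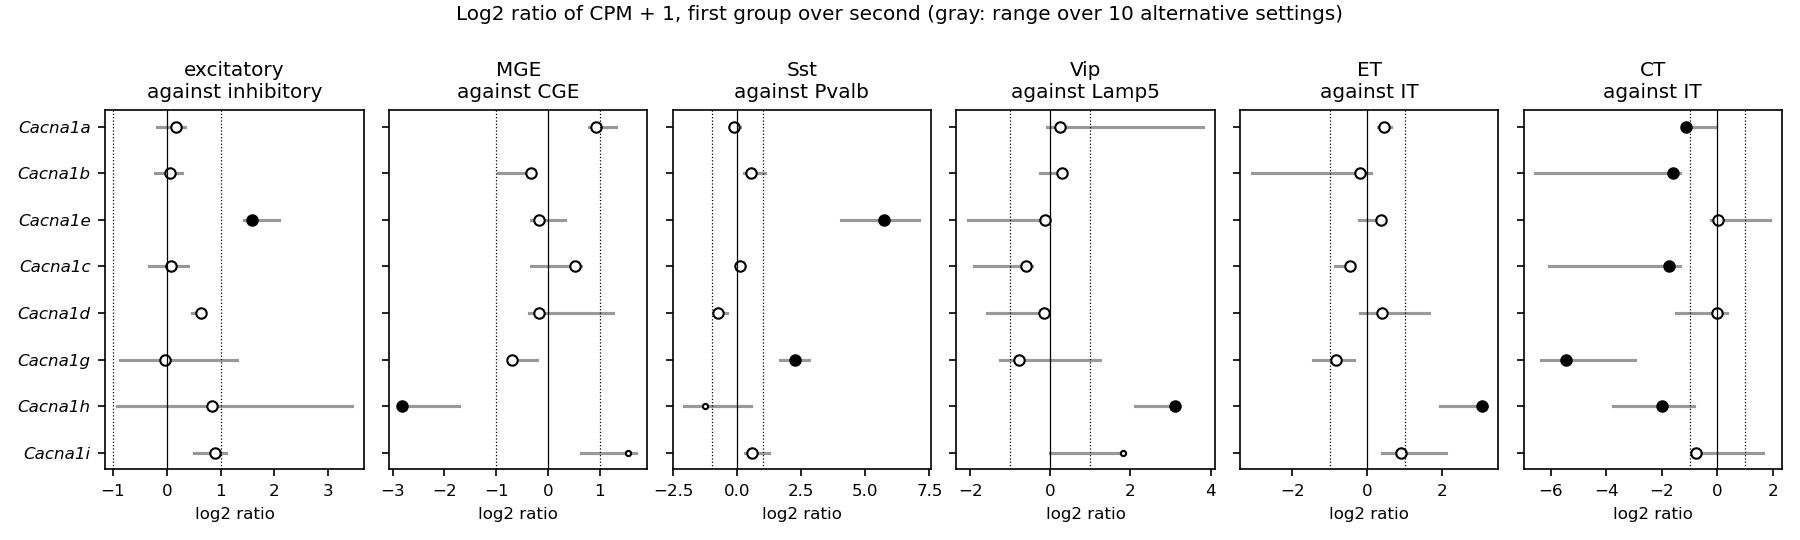
Log2 ratio of CPM + 1 for each gene in 6 comparisons, first group over second; axes differ between panels and dotted lines mark 2-fold. Black points are genes past 2-fold, white points are not, small points have under 10 CPM in both groups, and gray lines span the 10 alternative settings; Cacna1e in Sst against Pvalb (5.73) and Cacna1g in CT against IT (-5.45) lie farthest from 0.

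Within families, Cacna1g also split the interneuron t-types. In Pvalb, 4 of 9 t-types reached 10 CPM, with Pvalb Gabrg1 at 89.8 CPM and Pvalb Gpr149 at 1.35 CPM. The high value was uneven, since 56.9% of the reads of Pvalb Gabrg1 came from 1 of its 7 cells and the median cell was at 2.26 CPM. Pvalb Vipr2_2, whose name refers to a marker of chandelier cells, was at 61.4 CPM. In Sst, Sst Th_1 stood at 191 CPM and Sst Htr1a at 7.53. In Lamp5, Lamp5 Egln3_1 stood at 196 CPM, where all 9 cells had a read and ran from 3.11 to 433 CPM, against 11.4 CPM in Lamp5 Pax6.

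Cacna1i lies on chromosome 15 (bases 80287238 to 80398279, plus strand) and was the T-type gene with the fewest reads. Its level ran from 0.365 CPM in Lamp5 over 3.83 in Vip, 7.71 in Pvalb, 7.85 in CT, 11.9 in Sst and 14 in IT to 27.2 in ET. In 36 of 53 t-types it was under 10 CPM. Its highest t-type was Sst Pvalb Etv1 at 40.3 CPM, but 97.1% of these reads came from 1 of 8 cells.

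The 3 T-type genes were counted together in cells thinned to 200000 reads, which left 1157 cells and removed 71 shallower ones. At least 1 of the 3 had a read in 93.2% of ET cells, 77.9% of IT, 73% of Sst, 68.9% of Lamp5 and 66.4% of Vip cells, but in 34.1% of Pvalb and 26.8% of CT cells. All 3 had a read in 20 of 44 ET cells and in none of 82 CT cells or 237 Sst cells. Of all 8 genes, the median ET cell had reads of 7 and the median CT cell of 2.5. ET cells also had reads of more genes of any kind. Before thinning, the median was 9943 genes in ET, 7721 in IT, 7579.5 in Pvalb, 6874 in Sst and 6394 in CT. The part of this in the shares above was not tested. In Pvalb, the family with the least Cacna1e, 7.33% of thinned cells had a read of it (interval 4.53 to 11.1%), against 88.8% of IT cells.

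The P/Q- and N-type genes were read in all families. Cacna1a lies on chromosome 8 (bases 84388440 to 84640246, plus strand) and shares exonic sequence with Gm16183 on the other strand. Among the 7 larger families it was highest in ET at 103.8 CPM, followed by Pvalb at 79.7, IT at 76.2 and Sst at 71.7. Lower levels were found in Vip at 44, Lamp5 at 36.8 and CT at 34. Of the small families, L6b was at 85.5 CPM, NP at 84.9 (47.5 without 1 of its 5 cells) and Sncg at 10.8. Pvalb cells had reads in 236 of 286 cases, with a median of 51.4 CPM and a maximum of 813. All 9 Pvalb t-types were between 50.7 and 126 CPM. This span was 2.45-fold after adding 1 CPM, the smallest fold among the larger inhibitory families. The highest t-type was Sst Pvalb Etv1 at 221 CPM, with 72.5% of reads from 1 cell, and the lowest was Lamp5 Egln3_2 at 1.17 CPM.

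Cacna1b lies on chromosome 2 (bases 24603887 to 24763152, minus strand). Among the larger families it ran from 31.2 CPM in CT over 56.2 in Pvalb, 67.9 in Lamp5, 82.3 in Sst, 82.9 in Vip and 83.4 in ET to 95.7 in IT. The small Sncg family stood above all of them at 253.7 CPM. All 13 Sncg cells had a read, from 6.64 to 469 CPM with a median of 291, while in no larger family did the upper quartile over cells exceed 160 CPM. The Sncg level was 229 CPM in the 4 cells of the earlier period and 264 in the 9 of the later one. Cacna1a was at 10.8 CPM in these cells, with no read in 10 of 13, and at 4.26 without the cell with the most reads. The lowest t-type for Cacna1b was Vip Htr1f at 0.256 CPM (6 cells), while Vip Mybpc1_1 was at 158.

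The L-type genes were read in all 10 families. Cacna1c (chromosome 6, bases 118587240 to 119196418, minus strand) ran from 15.7 CPM in CT and 26.3 in Vip to 55.2 in IT, with 97.8 CPM in the 5 NP cells, of which 2 had a read (57.8 CPM without 1 of them). Cacna1d (chromosome 14, bases 30039939 to 30491455, minus strand), which shares exonic sequence with Chdh on the other strand, ran from 34.8 CPM in Sst to 92 in ET, with 140 in L6b and 2.64 in NP (1.58 without 1 of its 5 cells). Within families the spans were larger: Cacna1d was at 189 CPM in L6 IT_1 and 16.3 in L4/5 IT_1, and had no read in the 9 cells of Sst Myh8_3. Cacna1c was at 156 CPM in L5 IT_2, where 1 of 7 cells gave 73.7% of the reads.

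Over the 7 larger families, the quartile ranges of single cells were compared between neighbours in the order of levels. Of 48 neighbouring pairs over the 8 genes, the ranges overlapped or touched in 47. The exception was Cacna1g, where the quartiles of ET (7.25 to 96.9 CPM) and Pvalb (0 to 2.30 CPM) were separate. The lower quartile was 0 for most genes and families, and ranges that share 0 count as touching. The number therefore cannot show how far neighbours differ. For Cacna1e, Vip (quartiles 0 to 140.6 CPM) and Pvalb (0 to 0) counted as touching, at summed levels of 111.6 and 2.73 CPM. Farther apart in the order, Cacna1e separated IT (quartiles 94.9 to 499 CPM) and ET (157 to 610) from Pvalb (0 to 0).

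Levels of different genes were compared per kilobase of merged exon, since these range from 9.76 kb in Cacna1h to 25.2 kb in Cacna1e. On this scale (CPM per kb) Cacna1e was the first of the 8 genes in IT (10.9), CT (11.1), ET (13.9) and L6b (24.2). It was also first in NP at 8.10, close to Cacna1a at 7.43, with 66.7% of its reads from 1 of 5 cells. Among the inhibitory families the leading gene changed. Cacna1a led in Pvalb at 6.98 CPM per kb, where Cacna1e was last at 0.108. Cacna1b led in Sst (8.27), Vip (8.33) and Sncg (25.5), and Cacna1g in Lamp5 (9.39). In ET the second gene was Cacna1h at 11.1 CPM per kb, behind Cacna1e at 13.9.

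Across the 53 t-types the 8 genes varied largely apart from each other. Pearson's r of log2(CPM + 1) between 2 of the genes lay between -0.14 (Cacna1c and Cacna1h) and 0.44 (Cacna1a and Cacna1i) over 28 pairs. The t-types share families, libraries and depth, so these values are descriptions. Among 11584 genes with at least 50 CPM in some t-type, those most like Cacna1e were Baiap2 (r = 0.72), Fxyd7 (0.69) and Hpcal4 (0.68). Those most like Cacna1g were Fhl1 (0.69), Atp1b2 (0.67) and Kcnd3 (0.58), and those most like Cacna1h were Cp (0.59), Galnt18 (0.58) and Sec14l1 (0.56). For Cacna1a they were Fam135b (0.69), Gm17056 (0.68) and Vcl (0.66), and for Cacna1b they were Nlgn2 (0.72), Mon2 (0.71) and Grin1 (0.70). For Cacna1c they were Slc7a6 (0.74), Cep164 (0.64) and Gm47472 (0.63), for Cacna1d Adgrb3 (0.68), Dido1 (0.65) and Dgke (0.64), and for Cacna1i Map3k11 (0.62), Nefm (0.61) and Lmo4 (0.59).

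The auxiliary genes encode alpha2-delta and beta subunits, which bring the pore to the membrane and tune its gating, and gamma proteins, several of which are known mainly as partners of AMPA-type glutamate receptors. Of 16 such genes, 11 could be tested between medial and caudal interneurons, of which 1 was higher and 4 were lower in the medial group, against 12.6% of all tested genes past 2-fold in either direction. The alpha2-delta subunit Cacna2d1 was at 2.10 CPM in the medial and 175 in the caudal group, and Cacna2d2 was at 57.2 and 1.76. Between Sst and Pvalb, 3 of 9 were higher in Sst and none was lower (background 13.1%), led by Cacna2d3 (208 against 12 CPM) and the gamma gene Cacng5 (28.9 against 2.03). Between CT and IT, 4 of 8 were lower in CT and none was higher (background 20.8%), with Cacna2d3 at 1.67 against 120 CPM. Of all genes past 2-fold in that comparison, 25.5% were higher in CT. Between excitatory and inhibitory cells 2 of 10 were higher and 2 lower (background 16.4%), with Cacna2d2 at 1.94 and 41.5 CPM. Between Vip and Lamp5, 2 of 10 were higher and 1 was lower (background 19.4%), and between ET and IT none of 8 was higher and 2 were lower, near the background of 20%, with Cacnb3 at 32.5 and 117 CPM.

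Genes of proteins that bind calcium channels or respond to their calcium were also counted. In ET against IT, 5 of 18 tested were higher and 1 was lower (background 20%), among them Kcnn2, a calcium-activated potassium channel (293 against 50.4 CPM), and Ryr3, a calcium release channel (168 against 28.3 CPM). In CT against IT, 1 of 16 was higher, Rem2 (136 against 38.9 CPM), and 1 was lower, Gem (8.76 against 37.4 CPM), both small GTPases that bind the channel's beta subunit. These 2 of 16 are a smaller share than the background of 20.8%. In Sst against Pvalb, 3 of 15 were higher and 2 lower (background 13.1%), and in Vip against Lamp5 4 and 2 of 15 (19.4%). In medial against caudal interneurons 3 and 2 of 15 were past 2-fold (12.6%), and in excitatory against inhibitory cells 2 and 1 of 16, near the background of 16.4%. Of 3 other pore genes, Nalcn was the only one with enough reads for a call, and it did not pass 2-fold in any of the 6 comparisons.

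The 34 °C recordings gave the same genes in other cells, 110 Sst, 43 IT, 12 ET and 10 Pvalb. Cacna1e had no exonic read in the 10 Pvalb cells, which allows up to 0.232 CPM (3 reads over the group), against 109.6 CPM in Sst, at least 474-fold higher at this floor, which covers counting error only. Cacna1g was at 4.86 CPM in Pvalb and 43.6 in Sst, a log2 ratio of 2.93. Cacna1h was at 59.3 CPM in ET and 2.21 in IT, a log2 ratio of 4.23. The genes past 2-fold at 25 °C in these comparisons thus differed in the same direction at 34 °C, in cells that did not enter the first set.

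Intronic reads were scaled to 1000000 intronic reads. For the 3 genes just named their ratios were smaller than the exonic ones. For Cacna1e the log2 ratio of Sst over Pvalb was 2.62, with 304 intronic reads in Pvalb, of which 96.7% came from 1 of the 10 cells. For Cacna1g it was 2.31, and for Cacna1h in ET over IT it was 1.09, with 150 and 179 intronic reads. Cacna1d, which did not pass 2-fold between Sst and Pvalb at 25 °C (log2 ratio -0.76), had an exonic ratio of -1.53 and an intronic ratio of -0.18 at 34 °C. Intronic ratios of Sst over Pvalb were also above the exonic ones for Cacna1b (1.51 and 0.80), Cacna1c (0.48 and -0.21) and Cacna1i (2.12 and -1.10). For Cacna1a the intronic ratio was below the exonic one (-0.45 and 0.68). The Cacna1i values rest on few reads: in Pvalb, 1 of 10 cells had exonic reads, and 1 cell held all 3 intronic reads.

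In 12 t-types both temperatures had at least 5 cells. Over these, Pearson's r between the temperatures was 0.82 for Cacna1e, 0.66 for Cacna1h, 0.63 for Cacna1d and 0.37 for Cacna1i, but 0.09 for Cacna1a, -0.07 for Cacna1g, -0.20 for Cacna1b and -0.79 for Cacna1c. The order of the t-types in Cacna1e was therefore much alike, with L5 PT_1 highest in both (409 and 497 CPM) and Sst C1ql3_1 lowest (38 CPM and no read). For Cacna1h, L5 PT_1 was also highest in both (136 and 33.9 CPM), while most other t-types were under 1 CPM at 34 °C. In Cacna1c the order turned, though the t-types that moved most were small. Sst C1ql3_2 was at 119.6 CPM at 25 °C (6 cells) and 10.3 at 34 °C (5 cells). Sst Htr1a was at 20.7 (6 cells) and 109 (7 cells). At 25 °C, 1 cell gave 41.9% of the Cacna1c reads of Sst C1ql3_2. The number of t-types with the lower value at 34 °C was 10 of 12 for Cacna1e and Cacna1a and 6 of 12 for Cacna1i. Temperature, the synaptic blockers, the mice and the count table differ together between the 2 sets and cannot be told apart.

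**Figure D5:**
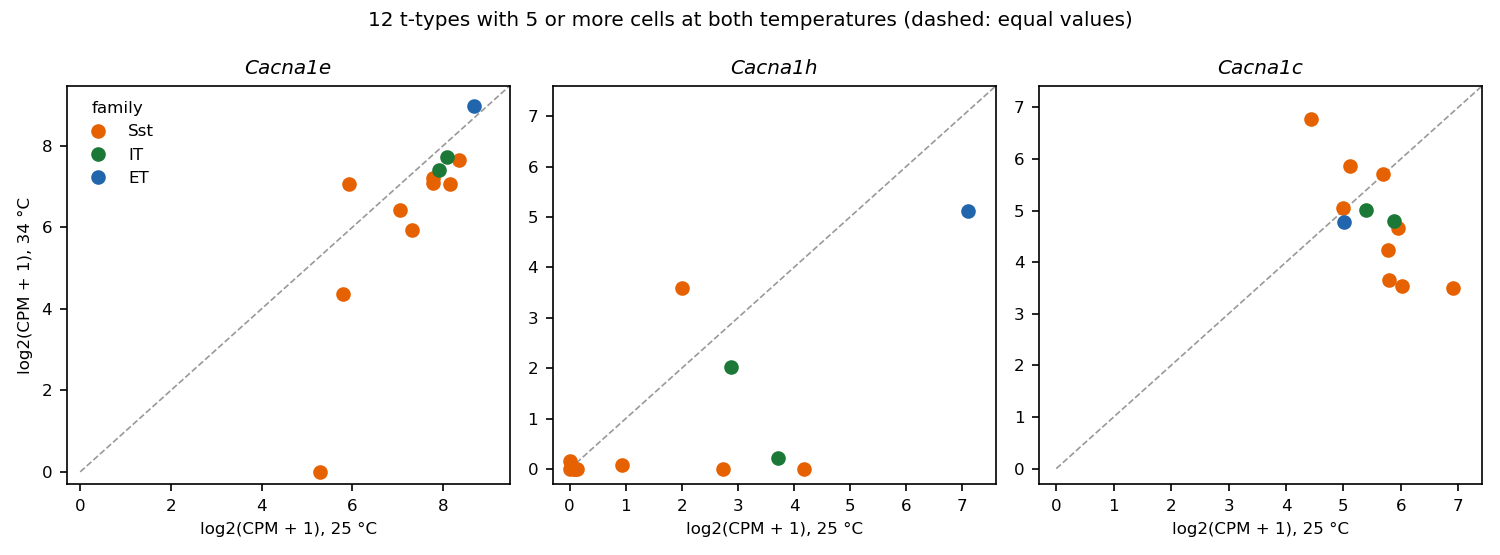
Level of Cacna1e, Cacna1h and Cacna1c, as log2(CPM + 1), at 25 °C (x axis) and 34 °C (y axis) in 12 t-types; each point is 1 t-type colored by family and the dashed line marks equal values. For Cacna1e, 10 of 12 points lie under the line (r = 0.82), with Sst C1ql3_1 at 0 and with Sst Crhr2_1 and L5 PT_1 above the line, and points of Cacna1c fall from left to right (r = -0.79).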

How the data were processed

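Samples are single neurons of mouse motor cortex, sequenced with Smart-seq2 as single-end reads of 75 bases. The authors demultiplexed with bcl2fastq (version 2.20), aligned to mm10 with STAR (version 2.5.4b) and deposited whole-number counts of exonic and intronic reads per gene, counted with zUMIs and a Gencode annotation, without normalization. In the exonic table of the 25 °C cells, 9 columns match no sample and were left out, and 85 spike-in rows (4.69% of counts) were left out of totals. Introns were counted at 25 °C too, but that table was not used here. The 34 °C exonic and intronic counts were scaled separately.

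The 8 genes, the families, the gene lists and the comparisons were chosen with earlier results of these data known. Exonic reads of all cells in a family or t-type were added up and scaled to CPM, so deeper cells weigh more. Log2 ratios use CPM after adding 1 CPM. The labels name no animal, so a group was treated as 1 sample and no test was run. Doublets were not searched for, since each cell was aspirated through its own pipette. Positions and exon lengths are from GENCODE M21 on GRCm38, the mm10 assembly. For each gene the 3 genes with the highest Pearson's r over t-types are named, and t-types are named where a family spans more than 4-fold with at least 10 CPM in the higher type. The text gives a selection of these. The 2 cells of the t-type Lamp5 Lhx6 were left out of the comparison of the eminences. Shares of cells were taken after thinning to 200000 reads. Python 3.11.15 with numpy 2.4.6, scipy 1.17.1, pandas 2.3.3 and matplotlib 3.10.9 was used, and the sums were tested on simulated data. Results were recomputed with other choices of scaling, pseudocount, filter, weighting of cells, depth, thinning and recording period and, chosen after the data were seen, without the cell with the most reads of a gene.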

Additional observations from a re-analysis of the deposited data

How the results depend on the processing

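The 11 called differences kept their direction under each of 10 alternatives, and 9 stayed past 2-fold under each. The exceptions, both in CT against IT, were Cacna1a, past 2-fold in 5 of 10 (lowest size -0.06, from the 1 CT cell of the earlier period), and Cacna1h, below 2-fold in 1 (-0.84, with a pseudocount of 10 CPM). The number of genes past 2-fold moved more. In excitatory against inhibitory cells it was 1, and 4 in the earlier recording period. In medial against caudal interneurons it was 1, and 2 with the mean over cells, the mean over t-types, the earlier period, thinned cells or no filter on level. In Vip against Lamp5 it was 1, and 2 with the mean over cells, the mean over t-types, thinned cells or no filter, and 5 in the earlier period. In ET against IT it was 1, and 2 with the mean over t-types, thinned cells or without the deepest cells, and 5 in the later period. In CT against IT it was 5, and 3 with a pseudocount of 10 CPM, 4 with the mean over t-types, the later period or thinned cells, and 7 in the earlier period. In Sst against Pvalb it was 2, and 3 with the mean over cells, the mean over t-types, thinned cells, no filter or either period alone. The highest of the 7 larger families was the same for 5 of 8 genes with the mean over t-types, 1 of 8 in the earlier period and 5 of 8 in the later period. Outside Sst against Pvalb, the single-period values include families with few cells in 1 of the periods (Vip, Lamp5, CT or ET). Sst had 111 earlier and 161 later cells, and Pvalb 152 and 134. The added gene in that comparison was Cacna1b in the earlier period (log2 ratio 1.10). In the later period it was Cacna1h (-2.07, against 0.53 in the earlier one). The cause of these moves was not tested. An alternative chosen after seeing the data left out, in each group, the cell with the most reads of the gene. It gave the same highest family for 8 of 8 genes and the same numbers past 2-fold, except 6 in CT against IT, where Cacna1i reached -1.04. The log2 ratio of Cacna1e in Sst against Pvalb was then 6.16. The alternative with intronic counts at 25 °C was not run. No paired analysis was possible because no result comes from a test; recording days shared by both groups are counted in the text as a description. Genes under 10 CPM, mainly Cacna1h and Cacna1i, are limited by depth.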

Other observations

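The 92 cells at 25 °C without a t-type entered no comparison. Their median level was 0 CPM for each of the 8 genes. Cacna1e had a read in 16 of them, with a maximum of 1043 CPM, Cacna1a in 14 (maximum 249 CPM), Cacna1c in 8 (564), Cacna1g in 7 (1720), and Cacna1d, Cacna1h and Cacna1i in 4 each. Cacna1b had a read in 2.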
